A study of Mus musculus with 16 samples.

Results

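B16-BL6 melanomas treated with 5-aminolevulinic acid (ALA) and X-ray were set against untreated control melanomas, 4 arrays against 4 of the 16 in the series. The arrays were taken by their sample titles, and every gene that could be measured was compared. The series asks how ALA modifies radiotherapy of a mouse tumour. The ALA plus X-ray tumours received 50 mg/kg ALA locally ahead of fractionated X-ray irradiation. Tumours given X-ray alone or ALA alone, also 4 arrays each, enter only where the combination is set beside its parts. The control tumours received neither agent. All tumours were B16-BL6 melanoma grown in male C57BL/6J mice aged 8 weeks, and each array measured total RNA of a tumour preparation kept in RNAlater. The radiation dose, the number of fractions and the time between the last fraction and collection are not given in the sources used here. B16-BL6 is a subline of the mouse melanoma line B16, so the tumour cells have 1 origin, while vessels, immune cells and matrix come from the host. Nothing states whether each preparation came from a separate mouse, so a p-value here measures the spread between these preparations.

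ALA is the first committed metabolite of heme synthesis. Cells given ALA in excess build up protoporphyrin IX, a porphyrin that produces reactive oxygen when excited and for which ALA is used in photodynamic treatment. Ionising radiation breaks DNA, which activates p53 and the cell cycle checkpoints; the p53 target Cdkn1a encodes p21, and p21 holds back the transcription of replication and mitosis genes through the pocket proteins and E2F factors. DNA that leaks from the nucleus of irradiated cells is sensed by cGAS and STING, whose signal induces type I interferon and, through STAT and IRF factors, a large set of antiviral and antigen presentation genes.

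Values are given as levels on a log2 scale: the array's processed signal divided by its 75th percentile, so that 0 is the 75th percentile spot of that array. A gene changed, here, when its adjusted p from limma (a linear model over all 16 arrays, Benjamini-Hochberg adjustment over the 15399 genes tested) was under 0.05. The 75th percentile of the signal was 366 to 521 on ALA plus X-ray arrays and 213 to 408 on control arrays (exact two-sided permutation test, p = 0.0571, where 0.0286 is the smallest possible), and 48.7% to 53.4% and 44.3% to 53.6% of spots were well above background. Array pairs correlated at 0.927 to 0.982 within ALA plus X-ray and 0.967 to 0.984 within control, and the median SD of a gene was 0.334 and 0.194. ALA plus X-ray replicate 1 stood apart from the other 3 of its group. On the first principal component, which held 45.8% of the variance, the ALA plus X-ray arrays had scores of -1.95, 70.2, 103.6 and 89.1 and the control arrays -43.7, -36.7, 13.9 and 3.75. Replicate 1 lay closest to the controls in most changed genes: among the 1504 genes that rose it was the lowest of its group in 980, and among the 2324 that fell it was the highest in 2024. Each slide held 1 array of every group, its number was the replicate number, and each group kept to 1 position, so array position and treatment cannot be told apart. In bulk tumour RNA, fewer cells of a type and less RNA per cell cannot be told apart either.

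The defining genes of the labelled tumour were bright. All 15 melanocyte pigment genes tested were well above background on all 8 arrays. Tyr, which encodes tyrosinase, the first enzyme of melanin synthesis, had levels of 0.31, 0.37, 0.73 and 0.05 in ALA plus X-ray tumours and 1.09, 0.27, 0.07 and 0.23 in control tumours. The groups overlapped, and the log2 fold change was -0.05 (SE 0.20, adjusted p = 0.885). The mean level of the 15 genes was 3.96, 3.72, 3.90 and 3.67 on the ALA plus X-ray arrays and 3.94, 3.82, 3.75 and 3.81 on the control arrays.

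ALA plus X-ray changed 3828 of 15399 genes against control (24.9%), 1504 upward (9.77%) and 2324 downward (15.1%). The rises were the larger: 845 genes rose and 449 fell by at least 2-fold. The array values of the groups did not overlap for 3168 genes (20.6%), 1384 of them higher and 1784 lower in the treated tumours. The median log2 fold change of all genes tested was -0.08. It was -0.14 with each array scaled to its median and -0.12 with a normexp background, and list shifts are to be read against it. Of the 3828 changed genes, 3608 differed in the same direction on all 4 slides. Without ALA plus X-ray replicate 1 the number that changed was 5953, of which 3761 were among the 3828. Leaving out another array gave 1954 (control 2), 2239 (control 1), 2191 (ALA plus X-ray 3), 2194 (ALA plus X-ray 2), 2538 (control 4), 2626 (ALA plus X-ray 4) or 3493 (control 3). The 136 named genes that changed kept their direction under each of these, and 78 of them kept an adjusted p under 0.05 under every alternative that tested them. Many were named for a small p or for groups without overlap in these same data. Without overlap, leaving out 1 array cannot turn the sign, so for such genes the kept direction is no separate support. A background fitted by the normexp model, with an offset of 50 added to every signal, gave a log2 fold change more than 1.5 times smaller for 34 of the 136. With it the call of 17 was lost. The offset draws fold changes of dim genes toward 0. Smaller normexp values of such genes, here and below, were thus in part set in advance by this choice. Since each slide bears 1 replicate number, a fit with that number as a block takes out slide differences; it lost the call of 9.

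The largest rises were led by an alarmin receptor and by interferon-inducible genes. Il1rl1, which encodes ST2, the receptor for interleukin 33, had levels of -3.31, 1.21, 1.39 and 2.62 in ALA plus X-ray tumours and -5.67, -5.33, -3.90 and -5.74 in control tumours. The groups did not overlap, although replicate 1 of the treated tumours lay near the brightest control, and only 1 control array was well above background. The log2 fold change was 5.64, with an SE of 1.28 and an adjusted p of 0.00959 (probe at chr1:40504769-40504828, mm9). Wfdc3, a whey acidic protein family gene, had 0.58, 2.45, 3.21 and 0.82 in ALA plus X-ray tumours against -2.85, -3.82, -2.86 and -3.13 in control tumours (log2 fold change 4.93, SE 0.61, adjusted p = 0.00091). All 4 treated tumours were above all 4 controls by more than 3 log2 units. A further 3 genes of this group were well above background on all 4 treated arrays and on no control array, so that only a lower bound can be given. Bglap, the osteocalcin gene, was at least 12.3-fold higher (adjusted p = 0.00325), Gbp6 at least 7.09-fold (0.0221) and Pak3, a p21-activated kinase gene, at least 6.39-fold (0.00091); the bound sets the treated mean against, on each control array, the dimmest signal called well above background or the gene's own where that was higher. The filter keeps a gene that is bright on the 4 treated arrays alone, so these 3 genes could enter the test through the treated group. The remaining genes of the largest 8 were the interferon-inducible GTPase genes Tgtp1, Ifi47 and Gbp2, described with their family below. With a normexp background Il1rl1 was at 2.90, Bglap at 1.96 and Pak3 at 1.30, all past the test, and Gbp6 was at 1.19 and did not pass (adjusted p = 0.152), so the bounds given here hold for the processed signal alone.

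Among genes that were well above background on all 16 arrays, 6 further rises stood out by size. Ccl8, a chemokine that attracts monocytes and T cells, had 2.78, 4.82, 5.01 and 5.75 in ALA plus X-ray tumours and -0.66, -0.02, 1.06 and 2.69 in control tumours (log2 fold change 3.82, SE 1.07, adjusted p = 0.0211). The dimmest treated tumour was just above the brightest control. Apol9b, an interferon-responsive apolipoprotein L gene, had 3.25, 3.72, 3.61 and 3.99 in treated and -1.44, -0.34, 0.37 and 0.85 in control tumours, with no treated tumour near a control (log2 fold change 3.78, SE 0.90, adjusted p = 0.0115). Sphk1, the kinase that makes sphingosine 1-phosphate, rose by 3.60 (adjusted p = 0.00593), Gbp3 by 3.54 (0.0186), Plac8 by 3.52 (0.0382) and Trim12a, a TRIM family gene, by 3.51 (0.00225). Plac8 did not pass with the replicate block (0.0626).

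The deepest fall was in Tenm4, which encodes teneurin 4, a large transmembrane adhesion protein. Its levels were -2.03, -2.68, -3.73 and -2.73 in ALA plus X-ray tumours and 0.61, 1.77, 0.61 and 1.55 in control tumours. The brightest treated tumour was more than 2 log2 units under the dimmest control, and the log2 fold change was -3.93 (SE 0.34, 15.2-fold lower, adjusted p = 0.000167, probe at chr7:104055032-104055091, mm9). Among the other large falls, Cyp26b1, which clears retinoic acid, fell by 2.23 (adjusted p = 0.00056), Mecom, a zinc finger transcription factor gene, by 2.17 (0.000725), the Wnt ligand gene Wnt10a by 2.15 (0.0102) and Daam2, a formin of Wnt signalling, by 2.08 (0.0225). Wnt10a was well above background on 1 treated array and 4 control arrays. The adhesion genes Negr1 and Cdh13 fell by 2.05 and 2.04 (adjusted p = 0.00182 and 0.00193), with Negr1 at -2.37, -2.34, -2.00 and -2.85 in treated and -0.42, -0.16, -0.47 and -0.30 in control tumours. In contrast to most falls, replicate 1 did not lie nearest to the controls for Negr1 or Cdh13. Among genes bright on all 16 arrays, the linker histone gene H1f4 fell by 2.01 (adjusted p = 0.0094), the imprinted growth regulator Phlda2 by 2.00 (0.00288), the platelet glycoprotein gene Gp9 by 1.99 (0.00235), Reep6 by 1.96 (0.0022) and the netrin receptor gene Unc5c by 1.81 (0.00288). Fdft1 and Insig1, of cholesterol metabolism, complete the 2 sets of falls. By the normexp model Wnt10a was at -0.73, Daam2 at -1.06, Gp9 at -1.09 and Phlda2 at -0.94, and each passed.

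**Figure D1:**
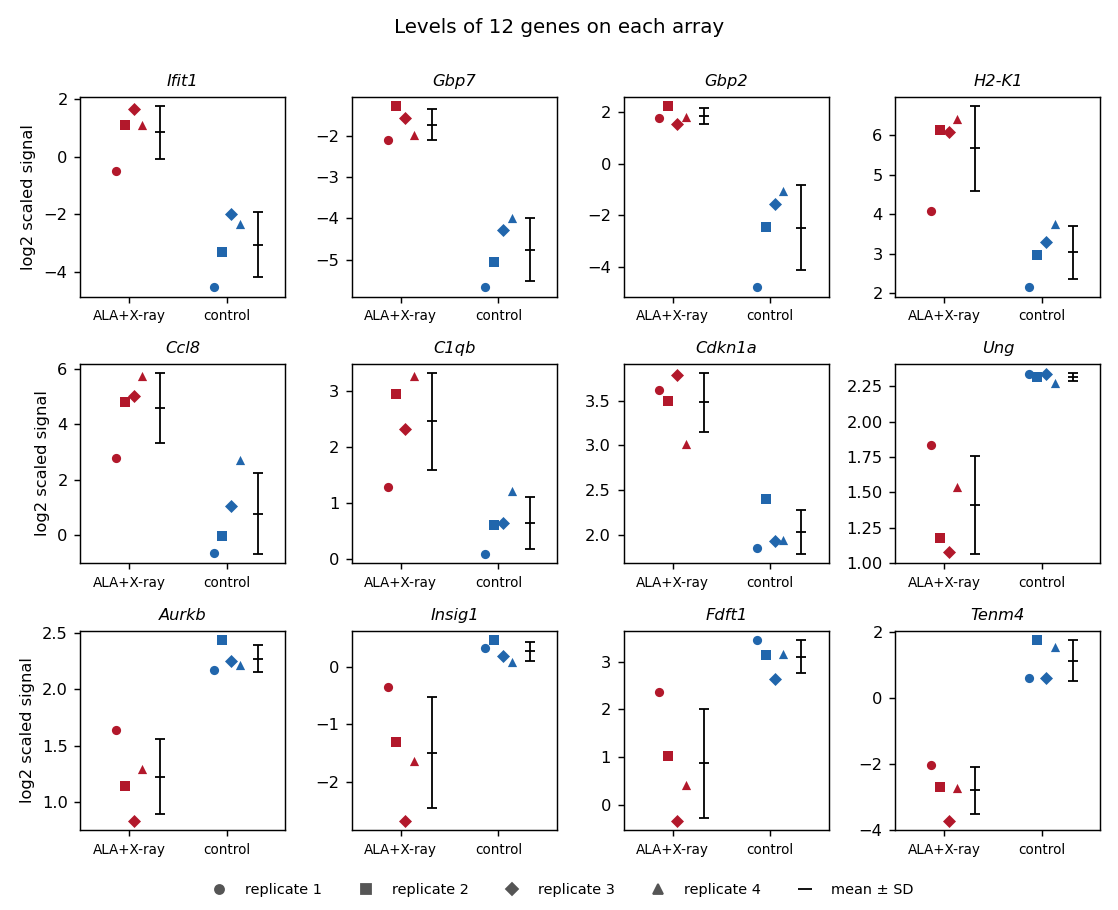
Levels of 12 genes on each array, as log2 processed signal over the array's 75th percentile, with ALA plus X-ray tumours left of control tumours in each panel; markers give the replicate number, and the bar is the mean with its SD over 4 arrays. No gene shown has overlapping groups, and replicate 1 of the treated tumours (circles) lies nearest to the controls in 10 panels, all but Gbp2 and Cdkn1a.

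Most interferon response genes rose. Of 39 tested, 31 rose and 1 fell, where 9.77% and 15.1% of all genes did, and their median log2 fold change was 1.96 against -0.08 over all genes. The gene that fell was Cgas, the sensor of cytosolic DNA (-0.75, adjusted p = 0.0229). Cgas did not pass without control replicate 1 or 4 or ALA plus X-ray 2 or 3. Sting1, the adaptor that carries the signal of cytosolic DNA, had levels of 2.80, 2.73, 3.15 and 3.03 in ALA plus X-ray tumours and 1.94, 1.62, 1.78 and 1.69 in control tumours. The groups were well apart, and the log2 fold change was 1.17 (SE 0.18, adjusted p = 0.00222). Ifit1, which binds foreign RNA lacking a host cap, had -0.50, 1.09, 1.66 and 1.08 in treated and -4.53, -3.31, -2.00 and -2.35 in control tumours. It was well above background on all treated arrays and on 2 control arrays, and its log2 fold change was 3.88 (SE 0.79, adjusted p = 0.00646, probe at chr19:34723796-34723855, mm9). Trim30a, a TRIM family regulator of innate signalling, rose by 2.53 (adjusted p = 0.00843) and Samd9l, an antiviral restriction gene, by 1.52 (0.00974). The chemokine gene Cxcl10, also interferon-induced, did not pass at 0.93 (adjusted p = 0.0854), although its groups did not overlap. Within slides 1 to 4 the list's median difference was 1.12, 2.72, 1.94 and 2.08. The number that rose was 16 without control replicate 2 and 19 without control replicate 1 or ALA plus X-ray replicate 2. Under the normexp alternative Ifit1 (2.45) and Trim30a (1.59) passed and Samd9l (0.50, adjusted p = 0.101) did not.

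The interferon-inducible GTPases, the guanylate-binding proteins and immunity-related GTPases that attack vacuoles of intracellular pathogens, had the highest median of any pathway list. Of 15 tested, 14 rose, and the median log2 fold change was 3.06, or 2.83 with the 4 members that no control array showed well above background at their bound. Tgtp1 had 2.76, 3.37, 3.63 and 2.83 in ALA plus X-ray tumours and -3.14, -1.33, -1.20 and -0.51 in control tumours (log2 fold change 4.70, SE 1.35, adjusted p = 0.0233). Gbp2 had 1.80, 2.26, 1.55 and 1.83 in treated and -4.81, -2.47, -1.56 and -1.07 in control tumours (log2 fold change 4.34, SE 1.25, adjusted p = 0.0239, probe at chr3:142300719-142300778, mm9). In both genes the treated tumours lay close together while the controls spanned more than 2 log2 units, with control replicate 1 the dimmest. Ifi47 rose by 4.49 (adjusted p = 0.0196), Igtp by 3.36 (0.0192) and Irgm2 by 3.06 (0.0105). Gbp7 was at least 4.03-fold higher (adjusted p = 0.0103). All 15 genes were well above background on all treated arrays. The filter keeps a gene that is bright in the treated group alone, so the count and the median can favour rises. These families hold near-identical copies, and binding of a probe to a relative's RNA was not tested. The number that rose was 2 without control replicate 2, 3 without control 1, 4 without ALA plus X-ray 3 and 5 without ALA plus X-ray 2, while each list median within a slide lay between 2.53 and 3.80. With a normexp background the list median was 1.77, Ifi47 was at 2.57, and Gbp7, at 0.77, did not pass (adjusted p = 0.0517).

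RefSeq promoters (GRCm38.p6, the 250 bases before the annotated start, 1 per gene) were searched for GAAA, any 2 bases and GAAA, the core of the interferon-stimulated response element, on both strands. It was in 8 of 9 GTPase promoters and 9 of 27 interferon response promoters, against 3.04% of 27025 promoters in all. The promoters of Ifit1 (chr19:34640639-34640888, plus strand) and Gbp7 (chr3:142530086-142530335, plus strand) are shown for the members of smallest p in each list whose promoter could be printed here, 5′ to 3′, with the element in capitals. In Ifit1 the elements begin 104 and 85 bases before the start, and in Gbp7 the single element begins 53 bases before it; all 3 read on the strand opposite to the gene. The letters describe the promoter and show no binding.
Ifit1: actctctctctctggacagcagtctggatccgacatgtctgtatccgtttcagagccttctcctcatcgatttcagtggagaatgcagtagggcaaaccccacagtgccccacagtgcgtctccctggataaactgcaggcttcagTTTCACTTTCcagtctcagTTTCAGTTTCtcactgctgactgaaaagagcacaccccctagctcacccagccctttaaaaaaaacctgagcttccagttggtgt
Gbp7: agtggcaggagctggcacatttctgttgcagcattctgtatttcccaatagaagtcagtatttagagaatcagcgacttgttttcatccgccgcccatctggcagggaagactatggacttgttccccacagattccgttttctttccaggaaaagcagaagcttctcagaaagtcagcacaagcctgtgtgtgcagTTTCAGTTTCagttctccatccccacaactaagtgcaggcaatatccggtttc

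Some antigen presentation genes rose and none fell. Of 18 MHC class I presentation genes tested, 10 rose (55.6%) and 0 fell, where 9.77% and 15.1% of all genes did. Their median log2 fold change was 1.06. H2-K1, a classical class I heavy chain, had levels of 4.07, 6.13, 6.09 and 6.40 in ALA plus X-ray tumours and 2.15, 2.96, 3.29 and 3.75 in control tumours. The groups did not overlap, and replicate 1 of the treated tumours was about 2 log2 units under the other 3 (log2 fold change 2.63, SE 0.66, adjusted p = 0.014). The non-classical heavy chain genes H2-T23 and H2-M3 rose by 2.37 and 1.54 (adjusted p = 0.0106 and 0.0111). Psme2, of the proteasome activator PA28 that favours peptides for class I, rose by 1.01 (adjusted p = 0.0154). Class I heavy chains resemble each other closely, and cross-hybridisation was not tested. Of 11 class II presentation genes, 3 rose (27.3%), and the median was 2.20. They were the proteases Ctss (log2 fold change 2.20, SE 0.67, adjusted p = 0.0299) and Lgmn (log2 fold change 1.05, SE 0.21, adjusted p = 0.00562), which cut the invariant chain and antigens, and H2-DMb1, which loads peptides (log2 fold change 1.75, SE 0.44, adjusted p = 0.0139). The other 8 were above 0 and did not pass, and the mean level of the class II list overlapped between the groups, at 0.39, 1.85, 1.46 and 2.07 on the treated and -1.43, -0.71, -0.25 and 0.56 on the control arrays. The number of class I genes that rose was 5 without control replicate 1 and 6 without control 2, ALA plus X-ray 2 or ALA plus X-ray 4, and the number of class II genes was 5 without ALA plus X-ray 1.

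**Figure D2:**
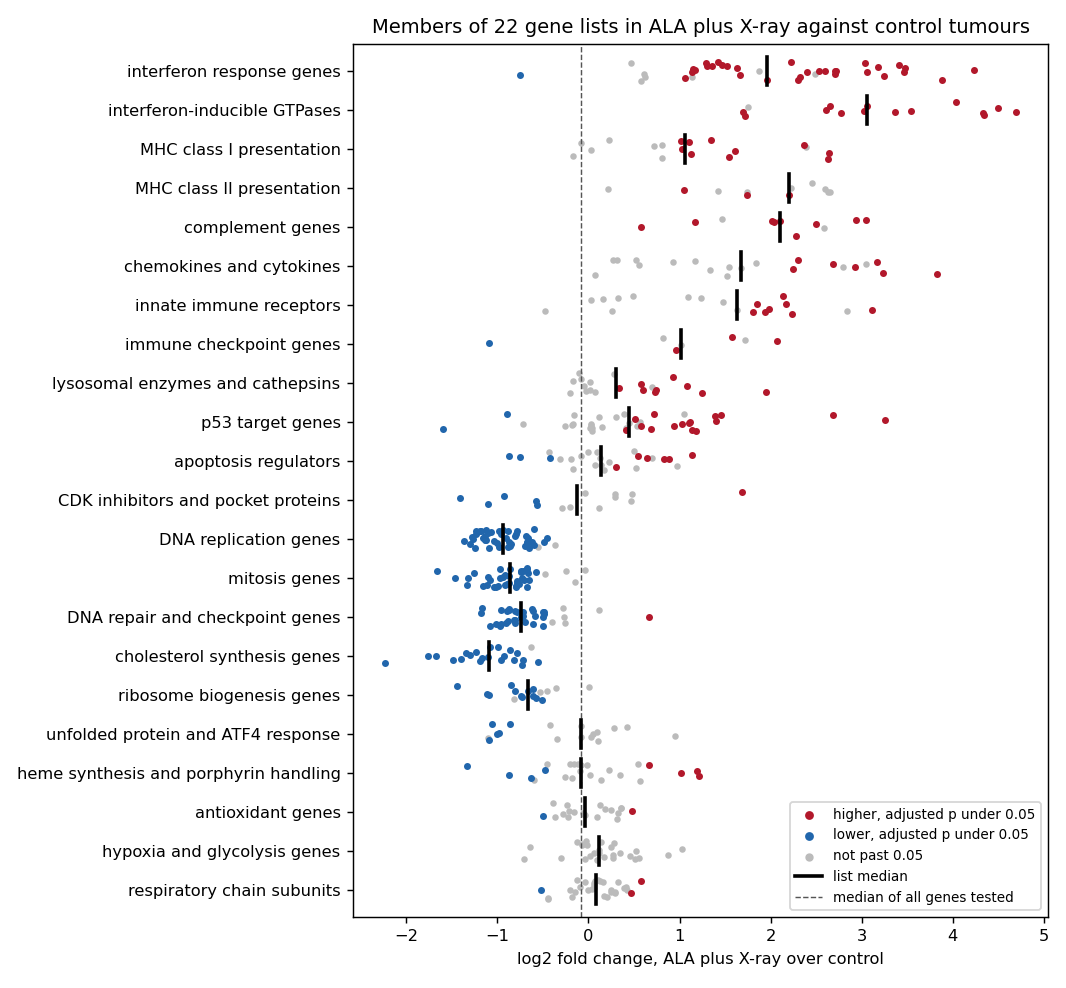
Log2 fold change of ALA plus X-ray over control for each tested member of 22 gene lists (points, 1 per gene), with the list median (black bar) and the median of all 15399 genes (dashed line, -0.08). Red points rose and blue points fell at an adjusted p under 0.05; interferon, GTPase, antigen presentation and complement members lie to the right, and replication, mitosis, repair, cholesterol and ribosome biogenesis members to the left.

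Most complement genes and some chemokine and innate receptor genes also rose. Of 11 complement genes tested 9 rose (median 2.10) and of 19 innate immune receptors 8 (median 1.64). Of 21 chemokine and cytokine genes tested 7 rose (median 1.67). In these lists 0 fell, where 9.77% of all genes rose and 15.1% fell. The chemokine and cytokine list held 31 genes, and those not tested were below the filter. No tested member of it was dim on every control array. Since bright treated arrays count toward the filter, the count and median of this list can favour rises. C1s1 and C1ra, the proteases of the classical complement pathway, rose by 2.10 and 1.17 (adjusted p = 0.00619 and 0.00322), and C4b, their substrate, by 2.04 (0.00855). C1ra had 2.04, 2.61, 2.53 and 2.69 in ALA plus X-ray tumours and 1.36, 1.31, 1.33 and 1.18 in control tumours, clear of each other. Masp1, a protease of the lectin pathway, was at least 5.04-fold higher (adjusted p = 0.0154), on the strength of 3 treated arrays; replicate 1 was not well above background.

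Ccl5, which recruits T cells and monocytes, had levels of 2.67, 3.56, 4.32 and 4.11 in ALA plus X-ray tumours and 0.22, 0.09, 0.55 and 1.13 in control tumours, with no overlap (log2 fold change 3.17, SE 0.61, adjusted p = 0.00518). Ccl6 and Ccl3, chemokines of myeloid cells, rose by 3.24 and 2.93 (adjusted p = 0.0135 and 0.00889). Il33, the alarmin that binds the Il1rl1 product, rose by 2.69 (adjusted p = 0.0128), with -0.65, 1.76, 2.13 and 3.01 in treated and -1.69, -1.45, -0.50 and -0.86 in control tumours; replicate 1 of the treated tumours lay among the controls. The inflammatory cytokine gene Il1b did not pass, at 1.67 (SE 1.16, adjusted p = 0.301). Among receptors, the activating Fc receptor gene Fcgr4 rose by 3.11 (adjusted p = 0.00761), the inhibitory Fcgr2b by 2.13 (0.0143), the endosomal RNA sensor Tlr7 by 2.17 (0.0108) and the C-type lectin gene Clec4d by 1.98 (0.0184). By the normexp model the receptor median was 0.89; Ccl3 (1.52), Tlr7 (0.89) and Masp1 (1.18) were smaller and passed.

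The mean level of the chemokine and cytokine list was -0.60, 0.90, 1.15 and 1.41 on the treated and -1.65, -1.23, -0.55 and -0.94 on the control arrays, and that of the receptors -1.05, 0.21, 0.16 and 0.57 and -1.86, -1.71, -1.15 and -0.93. In both lists treated replicate 1 lay within the control range and the other 3 above it. The counts of these lists moved with single arrays. Without ALA plus X-ray replicate 1, 14 chemokine and cytokine genes rose. Without another array the complement count fell to 5 (ALA plus X-ray 2 or control 2), and that of the receptors to 3 (ALA plus X-ray 3 or 4) or 4 (ALA plus X-ray 2, control 1 or control 2). Of 12 immune checkpoint genes listed, 7 were tested. Of these, 3 rose (42.9%) and 1 fell (14.3%), where 9.77% and 15.1% of all genes did. On no control array were 3 of the 7 well above background. Since bright treated arrays count toward the filter, the count that rose and the list median can favour rises. The fall was in Cd276 (-1.09, adjusted p = 0.0351), which did not pass without control 1, 2 or 4 or ALA plus X-ray 2 or 3. Havcr2, which encodes the inhibitory receptor TIM-3, rose by 0.96 (adjusted p = 0.0339), Cd86, a costimulatory ligand bright on 3 treated arrays, was at least 1.61-fold higher (0.0305), and Lag3 passed (0.0465) with no fold, since only 2 treated arrays were well above background. Under the normexp alternative Cd86 was at 0.023 (adjusted p = 0.951) and Lag3 at 0.05 (0.881), and the list median was 0.28 in place of 1.02. Cd274, which encodes PD-L1, had -0.64, 0.75, 1.10 and 0.72 in treated and -0.47, -0.58, -0.45 and -0.64 in control tumours, a log2 fold change of 1.02 that did not pass (adjusted p = 0.0747); replicate 1 was at the low end of the controls and the other 3 treated tumours were above them. The checkpoint count that rose was 0 without ALA plus X-ray replicate 2, 3 or 4 or control 1, 2 or 4, 1 without control 3 and 4 without ALA plus X-ray 1.

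Some markers of macrophages rose too, and their part in the rises of interferon and antigen presentation genes was not tested. Of 22 macrophage markers, all above 0, 10 rose (45.5%, where 9.77% of all genes did), with a median log2 fold change of 1.70. The mean level of the list was 0.37, 1.87, 1.90 and 2.28 on the ALA plus X-ray arrays and -0.81, -0.27, 0.22 and 0.51 on the control arrays, so that replicate 1 lay within the control range and the other 3 above it. C1qb, a complement component made by macrophages, had levels of 1.29, 2.96, 2.33 and 3.27 in treated and 0.08, 0.60, 0.64 and 1.22 in control tumours (log2 fold change 1.83, SE 0.53, adjusted p = 0.0249). Mpeg1, the pore-forming perforin-2 of phagocytes, rose by 1.87 (adjusted p = 0.0278), Cd68 by 1.29 (0.0146) and Mertk, a receptor for dying cells, by 0.73 (0.00601). Adgre1, which encodes a surface receptor that defines mouse macrophages, had 1.67, 3.61, 3.88 and 3.98 in treated and 0.69, 1.74, 1.80 and 2.14 in control tumours and did not pass (1.69, SE 0.72, adjusted p = 0.0966). Ptprc, the leukocyte gene CD45, was at 1.93 (adjusted p = 0.0896). With a normexp background Mertk was at 0.11 and did not pass (adjusted p = 0.571). The number that rose was 17 without ALA plus X-ray replicate 1, 5 with the replicate block, 6 without control 4 and with arrays scaled to the median, and 2 without any 1 of ALA plus X-ray 2, 3 or 4 or control 1 or 2.

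T and NK cell genes were mostly dim. Of 24 listed, 14 passed the filter on dim probes, 4 rose (median 2.27, or 1.51 with the 5 members dim on every control array at their bound), and 8 were well above background on all 4 treated arrays against 1 on all 4 control arrays; the filter keeps a gene that is bright in the treated group alone, so these counts favour rises. The share that rose was 28.6% of those tested, where 9.77% of all genes did. The mean level of the list was -3.56, -2.21, -2.66 and -0.87 on the ALA plus X-ray arrays and -4.82, -4.83, -4.49 and -3.50 on the control arrays. Gzmb, the granzyme B gene of cytotoxic cells, had -2.88, -1.51, -2.69 and -0.22 in treated and -5.44, -5.35, -4.31 and -3.89 in control tumours and was at least 3.79-fold higher (adjusted p = 0.0338). Gzma, bright on 3 treated arrays, was at least 2.16-fold higher (adjusted p = 0.0186), Nkg7 rose by 3.53 (0.0474) and the NK receptor gene Klrd1 by 2.87 (0.0479). Cd3e, the T cell receptor subunit that defines T cells, did not pass (0.78, SE 0.57, adjusted p = 0.33). By the normexp model the list median was 0.45, Gzmb (0.74, adjusted p = 0.134), Gzma (0.55, 0.281) and Klrd1 (0.96, 0.0555) did not pass, and Nkg7 (1.48) did. With the replicate block only Gzma passed; Gzmb, Klrd1 and Nkg7 had adjusted p values of 0.0511, 0.0723 and 0.0643. The count was 8 without ALA plus X-ray replicate 1, 1 without any 1 of ALA plus X-ray 2, 3 or 4 or control 1 or 2, and 2 with arrays scaled to the median or with the muscle level as a covariate.

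**Figure D3:**
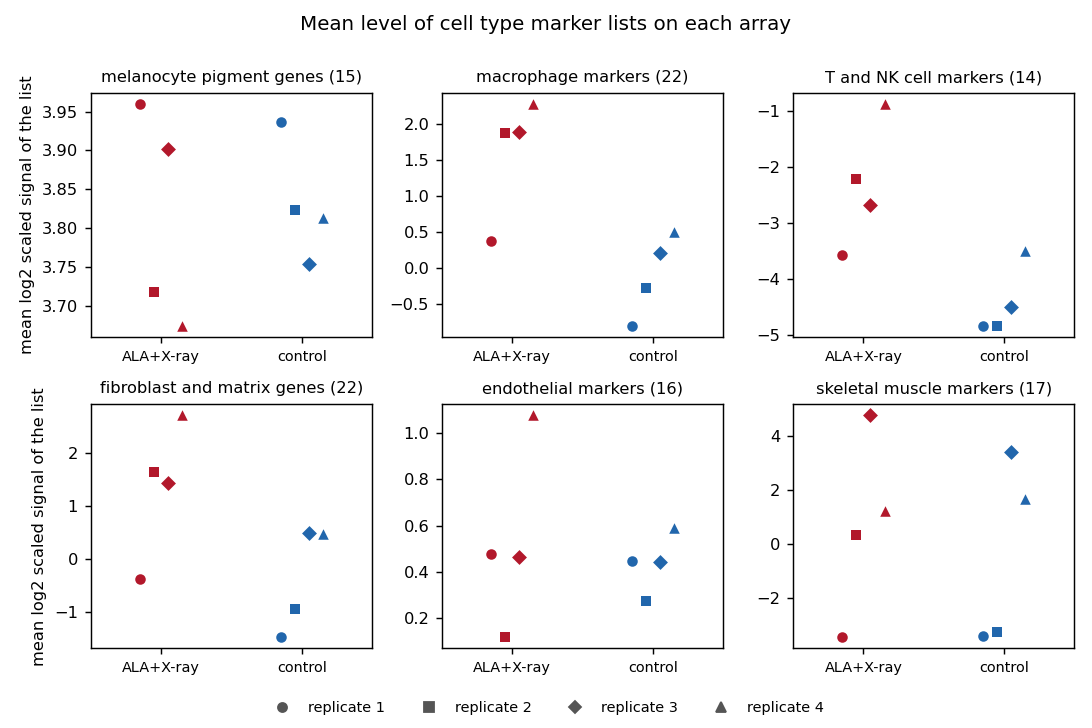
Mean level of 6 marker lists on each array, as the mean over tested members (number in the panel title) of the log2 processed signal over the array's 75th percentile, with ALA plus X-ray left of control and markers for the replicate number. Macrophage, T and NK cell and fibroblast lists are higher in treated replicates 2 to 4 than in any control, replicate 1 is within or near the control range, and skeletal muscle spans the same range in both groups.

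Some fibroblast and matrix genes rose, and skeletal muscle genes varied within both groups. Of 22 fibroblast and matrix genes, all above 0, 5 rose, and 16 did without ALA plus X-ray replicate 1, 2 without control 2 and 3 with the replicate block or without any 1 of ALA plus X-ray 2, 3 or 4 or control 1. The mean level of the list was -0.37, 1.63, 1.43 and 2.71 on the treated and -1.47, -0.93, 0.50 and 0.48 on the control arrays, with treated replicate 1 among the controls. Sparc, a collagen-binding matrix protein, had levels of 5.36, 5.94, 5.92 and 6.51 in ALA plus X-ray tumours and 4.48, 3.84, 4.63 and 4.50 in control tumours (log2 fold change 1.57, SE 0.28, adjusted p = 0.00413). The metalloproteinase genes Mmp3 and Mmp2 rose by 3.76 and 2.12 (adjusted p = 0.0155 and 0.0133). None of 17 skeletal muscle markers changed; their mean level was -3.47, 0.34, 4.76 and 1.21 on the treated and -3.42, -3.25, 3.40 and 1.66 on the control arrays. With that level as a covariate 3461 genes changed, and 28 interferon response genes rose and 43 DNA replication genes fell. Of 16 endothelial markers 2 rose (12.5%), Vwf (1.68, adjusted p = 0.00763) and Mmrn2 (0.66, 0.0209). Of 9 pericyte and smooth muscle markers Mcam rose (1.59, adjusted p = 0.00284) and Cspg4 fell (-1.13, 0.0161), 11.1% each. Of all genes 9.77% rose and 15.1% fell, so the shares of these lists were near those of all genes. Pparg of 8 adipocyte markers (0.75, adjusted p = 0.0209), Irf8 of 6 dendritic cell markers (2.08, 0.037) and S100a8 of 3 neutrophil markers (3.04, 0.0331) rose. The adipocyte share, 12.5%, was near that of all genes. Of 4 keratinocyte, 4 erythroid and 3 B and plasma cell markers none passed. The lists hold 12 neutrophil, 10 dendritic cell, 10 keratinocyte, 8 B and plasma cell and 7 erythroid genes. Their untested members were below the filter on dim probes, save Ly6g, which was not on the array by this name. The calls of Irf8 and S100a8 were lost without control replicate 1 or 2 or any 1 of ALA plus X-ray 2, 3 or 4. That of Irf8 was also lost with the replicate block (adjusted p = 0.056), and that of S100a8 without control 4 and with a normexp background (0.96, 0.0616). No adipocyte marker passed without control 1 or any 1 of ALA plus X-ray 2, 3 or 4, and 1 endothelial marker did without control 1, control 2 or ALA plus X-ray 4. Pecam1, which defines endothelium, was at 0.08 (SE 0.30, adjusted p = 0.862). The erythroid genes Hba-a1 and Hbb-bt, the globins, were at -1.09 and -0.95 and did not pass; the mean level of the 4 erythroid genes was -0.05, 1.03, 0.79 and 0.99 on the treated and 3.00, 1.16, 1.11 and 1.55 on the control arrays, without overlap. Of 4 platelet markers, Gp9 fell and the platelet chemokine gene Pf4 was at 1.30 (adjusted p = 0.0765). Under the normexp alternative Mmp3 was at 2.41 and Pparg at 0.44, both past the test.

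Targets of p53 rose more often than they fell. Of 37 p53 target genes, 16 rose and 2 fell, where 9.77% and 15.1% of all genes did, with a median log2 fold change of 0.44. Cdkn1a had levels of 3.62, 3.50, 3.79 and 3.02 in ALA plus X-ray tumours and 1.85, 2.40, 1.92 and 1.94 in control tumours. The groups were clear of each other and replicate 1 was among the highest, and the log2 fold change was 1.45 (SE 0.21, 2.74-fold, adjusted p = 0.00193, probe at chr17:29237377-29237436, mm9). Phlda3, an inhibitor of AKT, rose by 1.11 (adjusted p = 0.00696), the adenylate kinase gene Ak1 by 1.39 (0.00705), the translesion polymerase gene Polk by 0.69 (0.00992), the cyclin G1 gene Ccng1 by 1.11 (0.0196) and Mdm2, the ubiquitin ligase that degrades p53, by 0.71 (0.0154). The falls were Gdf15, a stress-induced cytokine gene (-1.60, adjusted p = 0.0104), and Tigar, a fructose bisphosphatase gene (-0.89, 0.0038). Within slides 1 to 4 the list median was 0.41, 0.47, 0.87 and 0.10, so slide 1 was not the smallest here. The number that rose was 8 without control replicate 1, control 2 or ALA plus X-ray 3, and 3 when the 2 groups were fitted alone. With a normexp background Polk was at 0.42, past the test.

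Of 25 regulators of apoptosis, 6 rose (24%) and 3 fell (12%), where 9.77% and 15.1% of all genes did, so the share that fell was not above that of all genes. The falls numbered 0 without control replicate 2, with median scaling and when the 2 groups were fitted alone, and 1 without ALA plus X-ray 2; the rises numbered 3 with median scaling and 2 when the 2 groups were fitted alone. The 4 rises of smallest p were the survival genes Bcl2l1 (0.88, adjusted p = 0.00529), Bcl2 (0.64, 0.0135) and Mcl1 (0.55, 0.0151) and Mlkl (0.83, 0.00487), the effector of necroptosis. Mlkl had levels of 2.39, 2.33, 2.15 and 2.26 in ALA plus X-ray tumours and 1.45, 1.47, 1.51 and 1.38 in control tumours, with replicate 1 the highest of the treated. Of 14 CDK inhibitors, pocket proteins and E2F factors, 1 rose (7.14%) and 5 fell (35.7%), so the share that rose was not above that of all genes. The rise was Cdkn1c (1.68, adjusted p = 0.037), which encodes the CDK inhibitor p57, and it did not pass without control 1 or 2 or any 1 of ALA plus X-ray 2, 3 or 4. The falls included the repressive E2F factors E2f7 (-1.41, adjusted p = 0.00992) and E2f8 (-1.10, 0.0166), the phosphatase gene Cdkn3 (-0.92, 0.0118) and the CDK4 and CDK6 inhibitor Cdkn2c (-0.58, 0.0165). The number that fell was 2 without ALA plus X-ray replicate 2 and 3 without ALA plus X-ray 3 or control 1. Cdkn2c did not pass with a normexp background (-0.44, 0.0602).

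Replication, mitosis and repair genes fell nearly throughout. Of 47 DNA replication genes, 45 fell and 0 rose (median -0.93). Of 41 mitosis genes, 37 fell and 0 rose (median -0.87), and of 37 DNA repair and checkpoint genes, 31 fell and 1, Brca1 (0.66), rose (median -0.74). All members of the replication list lay between -1.37 and -0.36. Pcna, the sliding clamp of the replication fork, had levels of 5.75, 5.09, 5.07 and 5.28 in ALA plus X-ray tumours and 6.15, 6.29, 6.12 and 6.16 in control tumours. The controls lay within 0.2 log2 units of each other and every treated tumour was below them (log2 fold change -0.89, SE 0.15, adjusted p = 0.00312). Ung, a uracil glycosylase that follows the fork, had 1.84, 1.18, 1.08 and 1.54 in treated and 2.34, 2.32, 2.34 and 2.27 in control tumours (log2 fold change -0.91, SE 0.14, adjusted p = 0.00253), again with replicate 1 nearest to the controls. Rfc4, of the clamp loader, fell by 1.24 (adjusted p = 0.00388) and Rpa2, which coats single-stranded DNA, by 0.87 (0.00351).

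Aurkb, the kinase of the chromosomal passenger complex, had levels of 1.64, 1.15, 0.83 and 1.29 in ALA plus X-ray tumours and 2.17, 2.44, 2.25 and 2.21 in control tumours, without overlap (log2 fold change -1.04, SE 0.18, adjusted p = 0.00355). Cdk1, the kinase that starts mitosis, fell by 1.25 (adjusted p = 0.00552), Foxm1, the transcription factor of G2/M genes, by 1.46 (0.00647) and Cdc20, which activates the anaphase-promoting complex, by 0.99 (0.00679). Ccnb1, the cyclin partner of Cdk1, fell by 0.87 (adjusted p = 0.026). Mki67, the proliferation marker Ki-67, had 5.01, 3.74, 3.02 and 4.54 in treated and 4.95, 5.27, 4.95 and 5.02 in control tumours; replicate 1 lay within the control range and the other 3 below it (log2 fold change -0.97, SE 0.33, adjusted p = 0.0448). Among repair genes, the mismatch repair gene Msh3 fell by 0.81 (adjusted p = 0.00322), the Fanconi pathway genes Fancb and Brip1 by 0.97 and 1.18 (0.00646 and 0.00692), and Usp1, which removes ubiquitin from FANCD2 and Pcna, by 0.78 (0.00701). Ccnb1 and Mki67 did not pass with a normexp background (0.055 and 0.0518), nor Mki67 with the replicate block (0.0602).

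These lists kept their direction within every slide, but were small on slide 1. The replication median was -0.26, -1.06, -1.48 and -0.94 on slides 1 to 4, and the mitosis median -0.12, -1.12, -1.33 and -0.79. The mitosis count was 18 without control replicate 2 or ALA plus X-ray 3, 19 without ALA plus X-ray 2 and 23 without control 4, and the repair count 18 without control 2 or ALA plus X-ray 2 and 20 without ALA plus X-ray 3. When the 2 groups were fitted alone, 16 replication, 14 mitosis and 10 repair genes fell, and with arrays scaled to the median 31, 23 and 20.

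**Figure D4:**
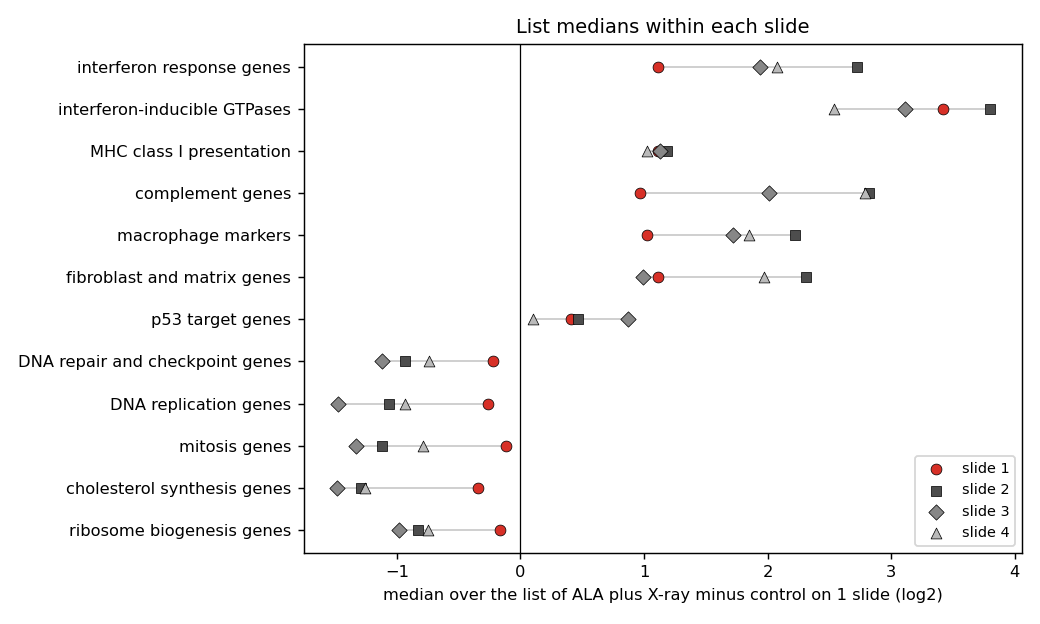
Median over the members of 12 gene lists of the difference between the ALA plus X-ray and the control array of the same slide, on a log2 scale, with 1 marker per slide. Every list keeps its sign on all 4 slides, and for replication, mitosis, repair, cholesterol and ribosome biogenesis genes slide 1 (red circles) is nearest to 0, at -0.12 for mitosis genes.

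Promoters of the falling cell cycle lists were searched in the same way for the E2F sequences TTTCCCGC and TTTGGCGC and for TTTGAA, the cell cycle genes homology region through which the DREAM complex represses G2/M genes. An E2F sequence was in 6 of 37 replication promoters and 0 of 34 mitosis promoters, against 1.35% of all. TTTGAA was in 10 of 34 mitosis promoters and 4 of 37 replication promoters, against 16.3% of all. It was also in 5 of 9 GTPase promoters and 4 of 27 interferon response promoters. TTTGAA and the interferon-stimulated element can share bases, and whether they did was not tested. The promoter of Ung, the replication gene of smallest p, holds neither an E2F sequence nor TTTGAA in this window. That of Cdk1, the mitosis gene of smallest p with a promoter in the table (chr10:69352913-69353162, minus strand, shown 5′ to 3′ on that strand), has TTTGAA, in capitals, beginning 71 and 15 bases before the start.
Cdk1: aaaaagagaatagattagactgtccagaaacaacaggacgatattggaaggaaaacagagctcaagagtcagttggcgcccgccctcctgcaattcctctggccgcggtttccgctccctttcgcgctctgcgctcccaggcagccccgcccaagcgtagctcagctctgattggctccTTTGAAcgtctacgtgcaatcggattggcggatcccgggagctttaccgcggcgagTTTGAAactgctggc

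Nearly all genes of cholesterol synthesis fell. Of 22 genes of the pathway, 21 fell and 0 rose, with a median log2 fold change of -1.09. Fdft1, squalene synthase, had levels of 2.37, 1.04, -0.34 and 0.41 in ALA plus X-ray tumours and 3.47, 3.15, 2.63 and 3.17 in control tumours. Replicate 1 of the treated tumours was just under the dimmest control, and the log2 fold change was -2.24 (SE 0.40, 4.71-fold lower, adjusted p = 0.00403). Sqle, squalene epoxidase, fell by 0.99 (adjusted p = 0.00288) and Hmgcs1, which makes HMG-CoA, by 1.24 (0.0056). Insig1, which holds SREBP factors in the endoplasmic reticulum and is itself their target, had -0.36, -1.30, -2.68 and -1.63 in treated and 0.32, 0.47, 0.19 and 0.09 in control tumours (log2 fold change -1.76, SE 0.35, adjusted p = 0.00616). Within slides 1 to 4 the list median was -0.35, -1.29, -1.49 and -1.26, and when the 2 groups were fitted alone 13 genes fell. Its members lay between -2.24 and -0.55.

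Most ribosome biogenesis genes and some genes of the unfolded protein and ATF4 response fell. Of 17 ribosome biogenesis genes, 12 fell (70.6%) and 0 rose, where 15.1% and 9.77% of all genes did. The nucleolar genes Nolc1 and Dkc1 fell by 1.44 and 1.09 (adjusted p = 0.00616 and 0.00716), and the small nucleolar ribonucleoprotein genes Nop56 and Fbl by 0.85 and 0.73 (0.0112 and 0.00869). The count was 6 without control replicate 1, ALA plus X-ray 2 or ALA plus X-ray 3 and with arrays scaled to the median, and 2 when the 2 groups were fitted alone. Of 17 unfolded protein and ATF4 response genes, 5 fell (29.4%) and 0 rose. Of the list 7 were above 0, and its median of -0.087 was close to that of all genes. The 4 falls of smallest p were the serine synthesis genes Phgdh (adjusted p = 0.00518) and Psat1 (-1.09, 0.00322), the asparagine synthetase gene Asns (-1.06, 0.00579) and the mitochondrial folate gene Mthfd2 (-0.98, 0.0263). The fifth was Atf4 itself (-0.86, adjusted p = 0.0265). Asns had 5.17, 4.54, 4.56 and 4.49 in ALA plus X-ray tumours and 5.82, 5.78, 5.29 and 6.10 in control tumours. That list's count was 3 without ALA plus X-ray replicate 2, 3 or 4 or control 2 or 4, and 3 in a fit on the 8 arrays alone.

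Genes of heme synthesis and porphyrin handling are the route that ALA enters. Of 24 tested, 4 rose and 4 fell, 16.7% each, where 9.77% and 15.1% of all genes did, so the share that fell was near that of all genes, with a median log2 fold change of -0.08, the same as over all genes. The rises were the biliverdin reductase gene Blvrb (1.21, adjusted p = 0.00376), the iron exporter Slc40a1 (1.20, 0.00616), the mitochondrial porphyrin-binding protein gene Tspo (0.66, 0.0182) and Abcg2, the exporter of protoporphyrin IX, with mean levels of -0.47 ± 0.64 in ALA plus X-ray tumours and -1.49 ± 0.55 in control tumours (SD, n = 4 each) that overlapped by array (log2 fold change 1.02, limma adjusted p = 0.0326). The falls included Tfrc, the transferrin receptor (-1.33, adjusted p = 0.0305), the mitochondrial glycine carrier Slc25a38 (-0.87, 0.0153) and the iron transporter Slc11a2 (-0.63, 0.0251). Alas1, the enzyme whose product is ALA, had 3.52, 3.32, 3.23 and 3.05 in treated and 3.15, 3.00, 2.90 and 3.15 in control tumours and did not pass (0.23, SE 0.35, adjusted p = 0.668). Fech, which turns protoporphyrin IX into heme, was at 0.55 (SE 0.23, 0.091) and Hmox1, which degrades heme, at 0.57 (SE 0.39, 0.301); neither passed. The rises numbered 2 without control replicate 2 or with median scaling, and the falls 1 without ALA plus X-ray 2 or 4 or control 1 or 2 and 2 without ALA plus X-ray 3 or control 4 or with median scaling. When the 2 groups were fitted alone, 1 fell.

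The lists on oxidative stress, hypoxia and respiration gave few calls. In each, the shares that rose and fell were below the 9.77% and 15.1% of all genes. Of 20 antioxidant genes Nfe2l2, which encodes NRF2, rose (0.48, adjusted p = 0.026) and the peroxiredoxin gene Prdx1 fell (-0.50, 0.0472); Nqo1, an NRF2 target, was at -0.36 (SE 0.18, 0.156). None of 27 hypoxia and glycolysis genes passed, with members between -0.71 and 1.03; without ALA plus X-ray replicate 1, 3 rose and 2 fell. Of 30 respiratory chain subunits 2 rose, Cox6c (0.57, adjusted p = 0.0233) and Ndufs3 (0.46, 0.0419), and Ndufv2 fell (-0.52, 0.0359). The respiratory rises numbered 0 without control 1 or ALA plus X-ray 3, with median scaling and when the 2 groups were fitted alone, and 1 with the replicate block (Ndufs3, 0.0528, did not pass). The fall of Prdx1 did not pass with the replicate block (0.0614), and it passed in none of the fits that left out 1 array other than ALA plus X-ray 1. No antioxidant gene rose without control 1, 2 or 4 or ALA plus X-ray 3, or with median scaling. Mitf, the master transcription factor of melanocytes, fell by 0.83 (adjusted p = 0.0214) and Tyrp1, an enzyme of melanin synthesis, rose by 0.51 (0.0123), the only calls among the 15 pigment genes; Mitf did not pass without control 1 or 2 or ALA plus X-ray 2 or 3. Of 20 lysosomal enzymes and cathepsins, 9 rose and 0 fell. Ctsd, cathepsin D, had 6.98, 6.85, 7.29 and 6.92 in ALA plus X-ray tumours and 6.03, 6.09, 6.05 and 6.17 in control tumours (log2 fold change 0.93, SE 0.12, adjusted p = 0.00145), with replicate 1 among the high values. Psap, the precursor of sphingolipid activators, rose by 0.74 (adjusted p = 0.00193), the cathepsin L gene Ctsl by 1.08 (0.00886) and the cathepsin H gene Ctsh by 1.95 (0.00498).

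The combination was set beside each agent alone. X-ray alone and ALA alone were compared with the same 4 control tumours, so the values are given side by side and not as independent results. Cdkn1a was at 1.45 in ALA plus X-ray over control, 1.52 in X-ray over control (adjusted p = 0.0143) and -0.53 in ALA over control. Pcna was at -0.89, -0.70 (0.0294) and -0.19 in the same order. Ifit1 was at 3.88, 2.34 (0.103) and 0.34, and C1qb at 1.83, -0.48 (0.64) and -1.72. By lists, the replication medians were -0.93, -0.66 and -0.14, the interferon medians 1.96, 0.75 and -0.10, and the macrophage medians 1.70, -0.91 and -1.62. The mean level of the interferon list was 1.78, -0.40, -0.89 and -0.89 on the X-ray arrays. On the control arrays it was -1.36, -1.28, -0.55 and -0.50, so only X-ray replicate 1 stood far above the controls.

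**Figure D5:**
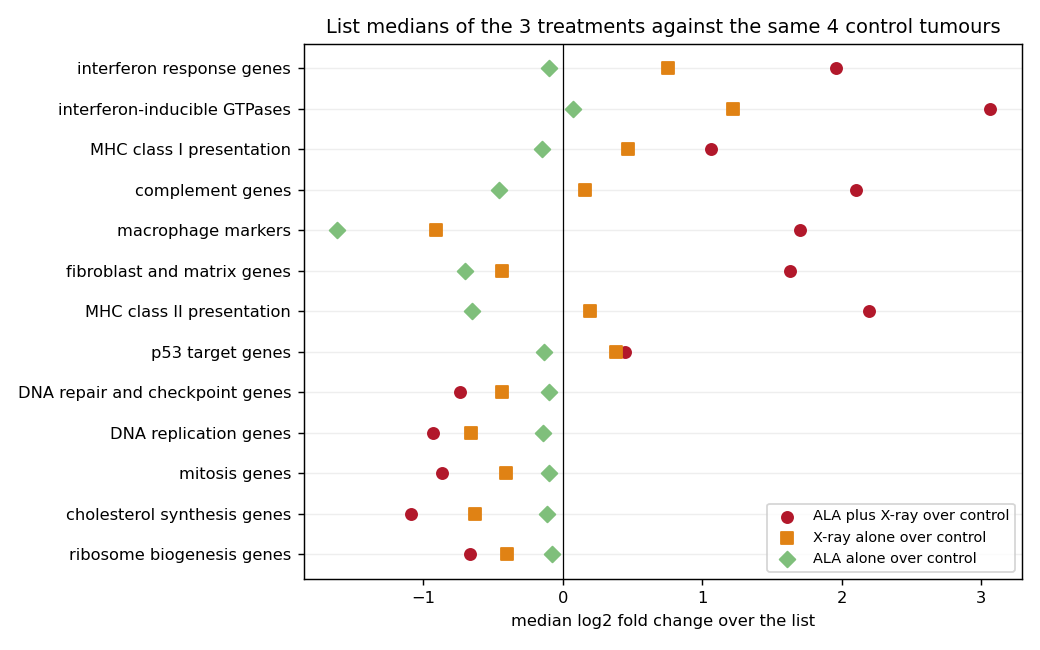
Median log2 fold change of 13 gene lists in ALA plus X-ray (red circles), X-ray alone (orange squares) and ALA alone (green diamonds), each over the same 4 control tumours, which the 3 comparisons share. Replication, mitosis, repair and p53 medians of X-ray alone lie on the side of the combination, and macrophage and fibroblast medians of X-ray alone and ALA alone lie below 0 (-0.91 and -1.62 for macrophages) while that of the combination lies above it. X-ray replicate 1, which stood apart from its group, enters every median of X-ray alone.

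Tested directly against X-ray alone, the combination changed 318 genes (2.07%), 200 higher and 118 lower. The 5 rises of smallest p with no overlap were Uox, Tecrl, Otulinl, Fli1 and Neurl3. All but Fli1 were well above background on 4 ALA plus X-ray arrays and on no X-ray array: Tecrl was at least 4.05-fold higher (adjusted p = 0.0124), Neurl3 at least 2.66-fold (0.0168), Uox, the urate oxidase gene, at least 2.66-fold (0.00896) and Otulinl at least 2.4-fold (0.0168). The filter keeps a gene that is bright on the 4 ALA plus X-ray arrays alone, so such genes could enter the test through that group. With no filter 11 genes changed in this comparison. Fli1, an ETS factor of blood and endothelial cells, had a log2 difference of 2.09 (adjusted p = 0.0168). By the normexp model the log2 differences were 0.96 for Tecrl, 0.87 for Uox and 1.25 for Fli1, which passed, and 0.70 and 0.64 for Neurl3 and Otulinl, which did not (0.0715 and 0.092). Among the falls, Tenm4 differed by -2.66 (adjusted p = 0.00896; -1.76 with a normexp background), Baiap2l1 by -1.03 (0.014) and Tcf7l1, a repressor of Wnt targets, by -0.72 (0.0168). Tcf7l1 had 2.40, 2.07, 2.07 and 2.24 in ALA plus X-ray tumours, 2.76, 2.88, 3.09 and 2.91 in X-ray tumours and 3.31, 3.44, 3.42 and 3.40 in control tumours, and within each group its values lay close together. Of 22 macrophage markers, 10 were higher than in X-ray alone, among them Cd68 by 1.37 (adjusted p = 0.0473), Mpeg1 by 2.81 (0.0344) and Adgre1 by 3.14 (0.0431). H2-K1 was higher by 2.91 (adjusted p = 0.0431) and Sting1 by 0.86 (0.0375), the only member of the interferon list that passed. With the replicate block 3 macrophage markers were higher, and Cd68, Adgre1 and H2-K1 did not pass (0.0627, 0.0547 and 0.0599). None of the p53 targets, replication or mitosis genes and none of the interferon-inducible GTPases passed in this comparison; Cdkn1a differed by -0.06 (SE 0.21, adjusted p = 0.883).

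The count against X-ray alone moved strongly when any 1 of the 8 arrays of the 2 groups was left out. X-ray replicate 1 was unlike the other 3 of its group: the mean level of the interferon-inducible GTPases was -0.02, 0.77, 0.78 and 0.60 on the ALA plus X-ray arrays and 2.00, -2.35, -2.84 and -3.13 on the X-ray arrays, where replicate 1 exceeded every ALA plus X-ray array. Without it 1093 genes changed, and the combination was higher than X-ray alone in 13 of 15 GTPases, 25 of 39 interferon response genes and 18 of 22 macrophage markers. Without ALA plus X-ray replicate 1, 3135 genes changed, among them 1 GTPase and 10 interferon genes upward, and 18 replication and 25 mitosis genes downward. Leaving out any of the other 6 arrays of the 2 groups left 3 to 9 genes, a fit on only the 8 arrays of the 2 groups 1 gene, and the muscle level as a covariate 85 genes.

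Against ALA alone the combination changed 3713 genes (24.1%), 1649 higher and 2064 lower, and 5817 without ALA plus X-ray replicate 1. Cdkn1a was higher (adjusted p = 0.000615), as were Tecrl, Tmem255a, Hacd4 and Tlr7 (0.00051, 0.000615, 0.000615 and 0.000615), and Tenm4, Tcf7l1, Mecom, Epha3 and Cyp26b1 were lower (0.00051 to 0.000652). Of the lists, 32 of 39 interferon response genes and 20 of 22 macrophage markers were higher, and 38 of 47 replication and 30 of 41 mitosis genes lower. Scaled to the median of each array, 1896 genes changed and 71.7% of them were higher, against 44.4% with the 75th percentile. With the muscle level as a covariate the count was 705.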

How the data were processed

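Total RNA of 16 tumour preparations was measured on 1-colour Agilent whole mouse genome arrays, 1 array each. The deposited scanner files give each spot's raw intensity, its local background and the processed intensity, which is background-subtracted and detrended within the array but not scaled between arrays, per the file headers, which name Feature Extraction 10.7.3.1 and probe positions on mm9. The submitters' processing notes name version 9.5.3.1. Flags for outliers and for signal well above background are the scanner software's own, per the file headers. The authors' deposited value table holds linear intensities whose column medians are equal, as after quantile normalisation; it served as an alternative.

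From these files, control spots (leaving 43379) and flagged outlier spots were left out, spots of a probe were averaged (41174 probes, 39 without an unflagged spot left out), and log2 processed intensity minus the array's 75th percentile was taken. Probes took RefSeq names by accession (26876), symbol (2894) or older symbol (351), and otherwise kept the file's name (11053), giving 30027 names. The brightest probe stood for a gene that was well above background on at least 4 of 16 arrays. limma 3.58.1 (R 4.3.3) fitted 4 group means with no block (12 residual and 2.348 prior degrees of freedom), and p-values were adjusted by Benjamini-Hochberg over 15399 genes. The script was tested on simulated data. The number of arrays, 4 a group, limits the precision. Promoters came from RefSeq tables, searched with Python 3.11.15.

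Genes were named by rule: the 8 largest rises and falls without overlap and bright in the higher group, the next 6 of each that were bright on all 16 arrays, the 4 members of smallest p of each list in its direction, a set of standard genes, and the 5 rises and falls of smallest p against each agent alone. A few genes chosen this way are left out of the text. Members of small counts outside the rule were named after their values were seen. The groups, lists and rules were chosen with earlier results of these data known. Alternatives were other backgrounds, scalings, filters, probe summaries, fits, weights, a muscle covariate and leaving out each array.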

Additional observations from a re-analysis of the deposited data

Results flagged for a closer look

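Of 380 sets of 4 arrays (each named gene in each of the 2 groups), 24 had 1 array far from the other 3; chance alone singles out about 1 set in 20. In 13 of the 24 the array was ALA plus X-ray replicate 1 (levels on the log2 scale). There it stood below the rest of its group for Adgre1 (1.67), Ctss (5.50), Fcgr4 (0.12), H2-K1 (4.07), Il1b (-5.35), Masp1 (-3.94), Olfr533 (-5.26), Otulinl (-3.72), Pparg (-1.02) and Sphk1 (1.16), and above it for Asns (5.17), Phgdh (5.69) and Prdx1 (6.36).
ALA plus X-ray replicate 4 was far above its group for the keratin genes Krt5 (1.79) and Krt14 (0.73), which mark keratinocytes. Control replicate 1 was far above the other controls for the globin genes Hba-a1 (5.92) and Hbb-bt (6.76). Control replicate 2 stood apart for Cdkn1a (2.40), H2-DMb1 (0.55) and Masp1 (-4.68), control replicate 3 for Gzma (-6.71) and Phgdh (5.82), and control replicate 4 for Krt14 (-1.65) and Pfkp (1.57). The Gzma and Masp1 values of the controls were not well above background.

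For 21 named genes given here, the effect of X-ray differed with and without ALA, by the interaction term of limma (log2 difference of the 2 X-ray effects, adjusted over all genes). Positive terms were found for Adgre1 (5.78, SE 1.02, adjusted p = 0.0274), C1qb (4.02, SE 0.75, adjusted p = 0.0295), Ccl8 (6.63, SE 1.51, adjusted p = 0.0495) and Cd68 (2.28, SE 0.46, adjusted p = 0.0331). Further positive terms were those of Ctsh (2.38, SE 0.52, adjusted p = 0.0439), Ctss (5.58, SE 0.95, adjusted p = 0.0272), Itgax (4.78, SE 1.09, adjusted p = 0.0495), Mpeg1 (4.20, SE 0.79, adjusted p = 0.0295) and Tlr7 (5.53, SE 0.72, adjusted p = 0.0136). In ALA plus X-ray, X-ray alone and ALA alone, each over the same controls, Adgre1 was at 1.69, -1.45 and -2.64, and Tlr7 at 2.17, -1.06 and -2.30. Positive terms were also found for Fli1 (3.01, SE 0.44, adjusted p = 0.0272), Hacd4 (1.92, SE 0.35, adjusted p = 0.0275), Neurl3 (3.51, SE 0.69, adjusted p = 0.0308), Otulinl (4.67, SE 0.63, adjusted p = 0.0146), Tecrl (3.52, SE 0.59, adjusted p = 0.0272) and Uox (5.77, SE 0.67, adjusted p = 0.00679). Negative terms were found for Baiap2l1 (-1.04, SE 0.21, adjusted p = 0.0308), Epha3 (-1.56, SE 0.32, adjusted p = 0.0358), Gp1bb (-1.83, SE 0.39, adjusted p = 0.0388), Gp9 (-2.37, SE 0.44, adjusted p = 0.0295), Olfr533 (-3.60, SE 0.72, adjusted p = 0.0308) and Tenm4 (-2.21, SE 0.49, adjusted p = 0.0439). Uox, Otulinl, Neurl3, Tecrl, Olfr533, Tlr7 and Itgax were dim on every array of at least 1 group, so their terms are no measured sizes. The share of all genes with a passing term is not given here, so the following counts have none to be set against. Of the 22 macrophage markers tested, 13 had a positive term that passed, and 0 did with the replicate number as a block. With that block, the terms of Fli1, Olfr533, Otulinl, Tlr7 and Uox passed, and the other terms given here did not. With a normexp background, the terms of Gp1bb, Itgax, Neurl3, Olfr533, Otulinl, Tecrl and Uox did not pass. X-ray replicate 1 and ALA plus X-ray replicate 1, which stood apart from their groups, enter every one of these terms, and their part was not tested.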

How the results depend on the processing

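The 3828 genes changed against control numbered 3461 to 4208 with a normexp background, quantile scaling, another 75th percentile, the authors' deposited table, a filter on all 16 arrays, the mean of probes, trended moderation, the muscle covariate and the replicate block (4147), and 2770 with no filter. They numbered 2135 with median scaling, 1603 with the 2 groups fitted alone, 6442 with array weights and 1294 at 2-fold or more; 39.3% were higher as reported, 45.5% with median scaling, 55.5% with the 2 groups fitted alone and 65.3% at 2-fold. Leaving out 1 array gave 1954 (control 2) to 5953 (ALA plus X-ray 1). Similar counts did not always hold the same genes. Of the 3828, 2800 were among the 4208 of the normexp background and 2206 among the 2770 with no filter. With the other alternatives of similar count 3250 (a filter on all 16 arrays) to 3699 (trended moderation) were shared. Against X-ray alone the 318 became 521 with normexp, 11 with no filter, 1 with the 2 groups fitted alone, 2165 with array weights, 85 with the muscle covariate and 199 at 2-fold or more, and 3 to 3135 without 1 array; 62.9% were higher as reported, 84.8% with median scaling and 45.0% with the replicate block. Against ALA alone the 3713 became 1896 with median scaling, 1589 with the 2 groups fitted alone, 6438 with array weights, 705 with the muscle covariate and 1382 at 2-fold or more, and 2165 to 5817 without 1 array. The causes were not tested. With the replicate block, 9 of the 136 named calls were lost; same-numbered ALA plus X-ray and control arrays correlated at 0.54, 0.09, 0.52 and 0.41 in their deviations, and unlike-numbered ones at -0.60 to 0.45. Same-numbered ALA plus X-ray and X-ray arrays correlated at -0.46, 0.14, 0.005 and -0.07. Same-numbered ALA plus X-ray and ALA arrays did so at -0.06, 0.04, 0.05 and -0.10. The numbers mark the slide, but 1 of the 4 correlations with control was not over 0.1, so the block stayed an alternative. Its values stand beside the results it changed.

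Of the values of named genes under these alternatives, 3552 kept direction and side of the threshold, 302 lost the call, 60 gained one and 25, in 13 genes none of which had changed, turned sign: with normexp Cd3e (-0.024), Gp1bb (-0.19), Mmp9 (-0.066), Pecam1 (-0.24), Retn (-0.28), Tyr (0.026) and Zbtb46 (-0.016); with the mean of probes Atp5b (-0.12) and Zbtb46 (-0.097); with quantile scaling Slc4a1 (0.027) and Tyr (0.0059); with the other 75th percentile Tyr (0.019); with the authors' table Slc4a1 (0.14); and with array weights Slc4a1 (0.47) and Tyr (0.0086). Leaving out 1 array gave Krt14 -0.39 (ALA plus X-ray 4) to 0.93, Krt5 -0.89 (ALA plus X-ray 4) to 1.10, Pecam1 -0.073 (control 1; -0.058 without ALA plus X-ray 4) to 0.29, Pvalb -0.061 (ALA plus X-ray 3) to 3.23, Rab27a -0.35 to 0.017 (ALA plus X-ray 4), Slc4a1 -0.59 to 0.37 (control 1; 0.025 without ALA plus X-ray 1) and Tyr -0.17 to 0.18 (control 1; 0.058 without ALA plus X-ray 4). Genes dim in 1 group have only bounds.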
